A study of Mus musculus with 24 samples.

Results

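The immediate early genes Fos, Fosb, Junb, Egr1, Egr2, Egr3, Egr4, Arc, Npas4 and Nr4a1 were followed through maps of trimethylated lysine 4 of histone H3 (H3K4me3) from mouse cerebral cortex. A member was a counted region that overlapped an annotated transcription start site (TSS) of one of these genes, and the rule found 10 regions, 1 for each gene, of 17993 regions in all. No member region held the TSS of another gene.

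The study joined an affinity purification of tagged chromatin to a second immunoprecipitation against H3K4me3, a procedure called tChIP-Seq, and set it beside an ordinary H3K4me3 immunoprecipitation of the whole tissue, called single ChIP-Seq. All mice were C57BL/6 and carried FLAG-tagged histone H2B, driven by the CAG promoter from the Rosa26 locus after removal of a floxed stop. In Rosa H2B-FLAG mice the stop had been removed by Vasa-Cre, so that nearly every cell carried the tag, and the line was kept heterozygous. In Camk2a H2B-FLAG mice it was removed by CaMK-CreERT2, a tamoxifen-dependent Cre of Camk2a-positive neurons, in males heterozygous for both transgenes, after tamoxifen at 1 mg per day for 5 days from 8 weeks of age, and tissue was taken about a month later. Each line gave 3 libraries of each kind, from lysates of 2 animals, so that there were 4 groups of 3 libraries. The exact age and the sex of the Rosa H2B-FLAG mice, which were adult, were not given in the sources used here, and effects of tamoxifen, of the Cre driver, of sex and age, and of the line cannot be told apart. What separates the lines in single ChIP-Seq is the mouse, while in tChIP-Seq it is also which cells supplied the chromatin. A difference in tChIP-Seq between more cells carrying the mark and more mark per cell cannot be told apart either.

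Immediate early genes are transcribed within minutes of a stimulus without new protein synthesis, and in cortical neurons the stimulus is synaptic activity and calcium entry. Most encode transcription factors, which in turn switch on late-response genes such as Bdnf. H3K4me3 marks promoters that are in use or ready for use, and at immediate early genes it is present before stimulation, so its level is not a measure of how much RNA was being made.

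Total counts in regions were 6316125 to 8644574 per library in Rosa single ChIP-Seq, 1457261 to 1828371 in Rosa tChIP-Seq, 4063200 to 4233144 in Camk2a single ChIP-Seq and 2709729 to 3049130 in Camk2a tChIP-Seq. Rosa tChIP-Seq was thus the shallowest group, and the member regions held between 90 and 1644 counts in a library. Marker regions differed between the groups. The summed level of 10 excitatory neuron marker regions, among them Camk2a, Slc17a7 and Neurod6, was 1552 to 1640 CPM (the count scaled to a common library size with TMM factors) in Camk2a tChIP-Seq and 653 to 693 CPM in Rosa tChIP-Seq, and that of 9 astrocyte regions was 294 to 312 CPM and 733 to 793 CPM. Camk2a, whose promoter defined the tagged cells, was higher in the Camk2a line in single ChIP-Seq too (log2 fold change 0.52). Its part in the sum was not tested. None of 10 microglia markers had a region that overlapped its annotated TSS, while 3 had one within 1000 bp, which was not counted as a marker region.

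The members differ in the sequence before their start sites, and stretches of it are shown here. A link between sequence and H3K4me3 was not tested. Capitals mark TGACG, the core of the cAMP response element (CRE) bound by CREB, which reads CGTCA on the other strand, as well as the CArG box bound by SRF and the TATA box. Sequences are from mm9 on the strand of the gene, 5′ to 3′. The Npas4 stretch is chr19:4990128-4990227 (minus strand), the Egr4 stretch chr6:85463680-85463779 (minus), the Arc stretch chr15:74503001-74503108 (minus), the Fos stretch chr12:86814521-86814820 (plus), the Fosb stretch chr7:19895442-19895725 (minus) and the Junb stretch chr8:87502634-87502761 (minus).
Npas4: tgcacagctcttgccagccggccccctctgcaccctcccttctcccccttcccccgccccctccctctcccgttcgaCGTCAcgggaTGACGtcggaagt
Egr4: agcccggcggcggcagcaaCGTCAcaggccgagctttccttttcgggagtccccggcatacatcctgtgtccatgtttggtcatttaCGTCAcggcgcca
Arc: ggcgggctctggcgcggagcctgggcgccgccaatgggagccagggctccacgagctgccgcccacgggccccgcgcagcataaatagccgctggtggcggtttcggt
Fos: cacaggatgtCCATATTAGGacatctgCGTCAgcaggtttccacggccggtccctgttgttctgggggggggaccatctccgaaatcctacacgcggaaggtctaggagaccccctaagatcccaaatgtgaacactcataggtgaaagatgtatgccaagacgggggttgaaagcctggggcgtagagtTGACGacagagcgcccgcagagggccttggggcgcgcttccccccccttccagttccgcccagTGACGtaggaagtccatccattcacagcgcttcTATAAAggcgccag
Fosb: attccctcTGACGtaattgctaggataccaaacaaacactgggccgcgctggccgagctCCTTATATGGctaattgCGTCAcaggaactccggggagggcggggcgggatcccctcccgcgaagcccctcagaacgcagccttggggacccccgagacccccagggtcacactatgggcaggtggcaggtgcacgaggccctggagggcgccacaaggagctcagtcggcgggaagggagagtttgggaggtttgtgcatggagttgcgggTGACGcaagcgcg
Junb: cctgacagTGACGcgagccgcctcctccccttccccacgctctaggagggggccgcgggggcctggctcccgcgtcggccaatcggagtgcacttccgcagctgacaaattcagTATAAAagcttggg

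In Npas4 and Egr4, pairs of the CRE core were found in these stretches and no CArG box, in Fos and Fosb the CRE core stood together with a CArG box, and the Arc stretch held neither. Searched on both strands over 400 bp upstream of the annotated start, TGACG was found in 8 members, all but Arc and Egr3, against 35.2% of the 38831 annotated start positions that lie in a counted region. The CArG box was found in 4 members, Egr1 with 4 copies, Egr2 with 2, and Fos and Fosb with 1 each, against 1.74% of start positions. The TATA box (TATAAA) was found 33 bp upstream in Fos, 30 bp in Junb and 262 bp in Nr4a1, against 9.36%. The EGR site (GCGNGGGCG), which can overlap the GC box, was found in Arc, Fosb and Nr4a1, against 12.4%. The full CRE (TGACGTCA) and the AP-1 site (TGANTCA) were found in 0 members, against 3.47% and 6.12%. These are matches of letters in a window and not measured binding.

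The member regions were broad. Their widths ran from 2994 bp at Egr4 to 7152 bp at Egr3, with a median of 4984.5 bp against 2060 bp over the 13404 regions that overlap a TSS, and each was wider than at least 79.1% of those regions. The region of Npas4, chr19:4984394-4990125, began only 154 bp before its start site, so that the stretch printed above lies outside it, and ran 5577 bp into the gene. Fos (chr12:86812684-86817646), Junb (chr8:87499660-87504665), Egr2 (chr10:66998706-67002410) and Egr3 (chr14:70473940-70481091) extended 2156, 2048, 1911 and 3312 bp before the start. The remaining regions were Fosb at chr7:19892554-19896295, Egr4 at chr6:85461183-85464176, Arc at chr15:74499266-74503949 and Nr4a1 at chr15:101096399-101101727, while that of Egr1 lies on chromosome 18.

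Levels of different genes were compared as CPM per kb of region. In Rosa tChIP-Seq the order of mean levels ran from Junb at 34.0 ± 1.64 CPM per kb (SD, n = 3) through Fosb (29.9), Fos (28.7), Egr1 (26.3), Egr3 (22.7), Arc (21.8), Egr4 (20.3), Egr2 (19.8) and Nr4a1 (18.3) to Npas4 at 10.7 ± 0.488 CPM per kb. Only Junb over Fosb, Egr1 over Egr3 and Nr4a1 over Npas4 were neighbours whose libraries did not overlap. In Camk2a tChIP-Seq the order ran from Egr4 at 48.9 ± 1.14 CPM per kb through Arc (38.9), Junb (36.4), Npas4 (34.0), Egr3 (32.7), Egr1 (32.2), Fosb (31.5), Fos (29.3) and Nr4a1 (28.6) to Egr2 at 27.4 ± 1.54 CPM per kb, and only Egr4 over Arc and Arc over Junb were separated. Npas4 thus stood at place 10 with the tag in nearly all cells and at place 4 with the tag in Camk2a-positive neurons, Egr4 at 7 and 1, and Arc at 6 and 2, while Nr4a1 stood at 9 in both. Among the regions that overlap a TSS, the mean level per kb of Npas4 was at percentile 5.59 in Rosa tChIP-Seq and 67.0 in Camk2a tChIP-Seq, that of Egr4 at 26.6 and 97.0, and that of Arc at 30.6 and 82.9. In single ChIP-Seq the percentiles of the lines were close, at 31.1 and 31.9 for Npas4, 46.4 and 42.1 for Egr4, and 73.7 and 70.4 for Arc.

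**Figure D1:**
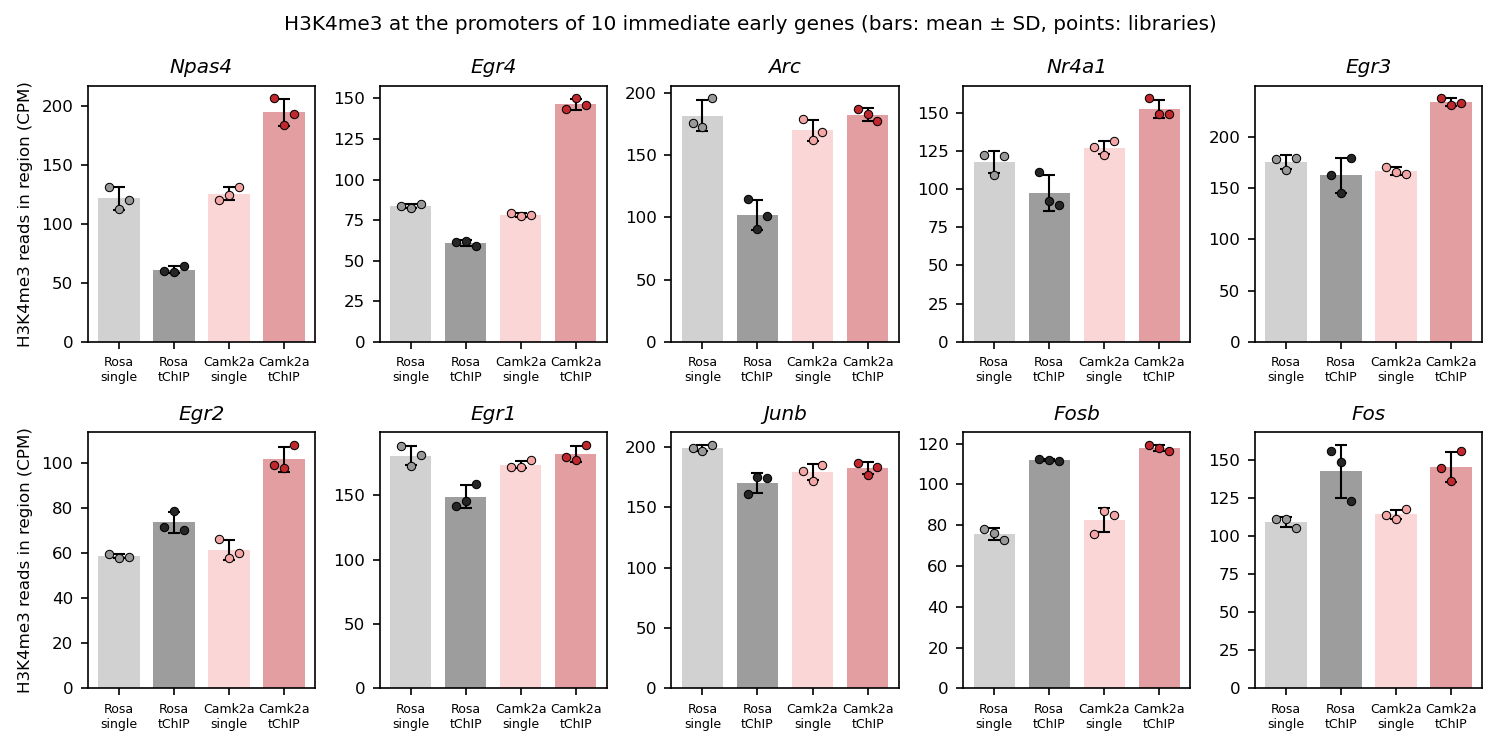
H3K4me3 in CPM at the regions of the 10 immediate early genes in Rosa single ChIP-Seq, Rosa tChIP-Seq, Camk2a single ChIP-Seq and Camk2a tChIP-Seq, with points for libraries and bars for the mean ± SD (n = 3). Npas4 stands at 59.0 to 64.3 CPM in Rosa tChIP-Seq and at 184 to 207 CPM in Camk2a tChIP-Seq, while Fos overlaps between those groups.

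The first comparison set tChIP-Seq of Camk2a H2B-FLAG against tChIP-Seq of Rosa H2B-FLAG. Marker levels in Rosa tChIP-Seq were not those of whole tissue. Its excitatory neuron sum was 653 to 693 CPM, against 1190 to 1204 CPM in Rosa single ChIP-Seq. Its astrocyte sum was 733 to 793 CPM, against 521 to 533 CPM. A line effect in tChIP-Seq is thus not a gain over all cortical cells, and it can hold a fall in Rosa tChIP-Seq as well as a rise in Camk2a tChIP-Seq. Of the 10 members, 7 were higher in Camk2a H2B-FLAG and 0 lower at an adjusted p under 0.01, the threshold for a call here, while 17.0% of all regions were called higher and 14.6% lower. The calls covered Npas4, Egr4, Arc, Nr4a1, Egr3, Egr2 and Egr1, with log2 fold changes from 1.68 down to 0.30. The 3 members of the Fos and Jun families, Fos, Fosb and Junb, were not called. The median log2 fold change was 0.50 over the members and -0.0033 over all regions.

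Npas4 encodes a neuronal bHLH-PAS factor that is induced by calcium entry and acts on inhibitory synapses. Its region held 207, 184 and 193 CPM in the 3 Camk2a tChIP-Seq libraries and 60.0, 59.0 and 64.3 CPM in the 3 Rosa libraries. The lowest Camk2a library thus stood far above the highest Rosa library. On the log2 scale the change was 1.68 ± 0.08 (SE), with an adjusted p of 9.09e-31, and it ranked 102 among 17993 regions by log2 fold change.

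Arc encodes a cytoskeleton-associated protein of dendrites that removes glutamate receptors from synapses, and it is the only member that is not a transcription factor. Its region held 187, 183 and 177 CPM in Camk2a tChIP-Seq and 115, 90.7 and 101 CPM in Rosa tChIP-Seq. The groups did not overlap, and the change on the log2 scale was 0.83 ± 0.07 (SE, adjusted p = 3.61e-17).

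The Egr genes encode zinc finger factors that bind GC-rich sites. All 4 were called, but by unequal amounts. Egr4 held 143, 150 and 146 CPM in Camk2a tChIP-Seq and 61.6, 62.0 and 59.1 CPM in Rosa tChIP-Seq, and its log2 fold change was 1.27 ± 0.08 (SE, adjusted p = 4.58e-23). Egr3 held 238, 231 and 234 CPM against 163, 146 and 179 CPM, a log2 fold change of 0.54 ± 0.06 (adjusted p = 3.22e-12). Egr2, also known for its part in myelination by Schwann cells, stood at 97.4 to 108 CPM against 70.2 to 78.7 CPM (0.47 ± 0.09, adjusted p = 5.78e-06). Egr1, which is used widely to mark active neurons, stood at 177 to 189 CPM against 142 to 159 CPM (0.30 ± 0.06, adjusted p = 6.45e-05). The 95% intervals of Egr4 and Egr3 were apart, 1.10 to 1.43 and 0.42 to 0.66, while those of Egr3, Egr2 and Egr1 overlapped each with the next.

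Nr4a1 encodes an orphan nuclear receptor. Its region held 159, 149 and 149 CPM in Camk2a tChIP-Seq and 111, 91.9 and 89.2 CPM in Rosa tChIP-Seq. The first Rosa library was higher than the other 2 but still below every Camk2a library, and the log2 fold change was 0.64 ± 0.08 (SE, adjusted p = 1.76e-11).

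Fos, Fosb and Junb encode subunits of the AP-1 complex, in which a Fos protein pairs with a Jun protein. Fos held 144, 136 and 156 CPM in Camk2a tChIP-Seq and 156, 149 and 123 CPM in Rosa tChIP-Seq. These groups overlapped, and the change on the log2 scale, 0.02 ± 0.07 (SE, adjusted p = 0.825), had a 95% interval of -0.12 to 0.16. Fosb held 119, 118 and 116 CPM against 112, 112 and 112 CPM, so that every Camk2a library was above every Rosa library by a small margin (0.08 ± 0.07, adjusted p = 0.412, 95% interval -0.06 to 0.23). Junb held 187, 177 and 183 CPM against 161, 175 and 175 CPM (0.11 ± 0.06, adjusted p = 0.154, 95% interval -0.01 to 0.23). In all, 9 of the 10 members, all but Fos, had every Camk2a library above every Rosa library, which was the case for 24.8% of all regions.

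**Figure D2:**
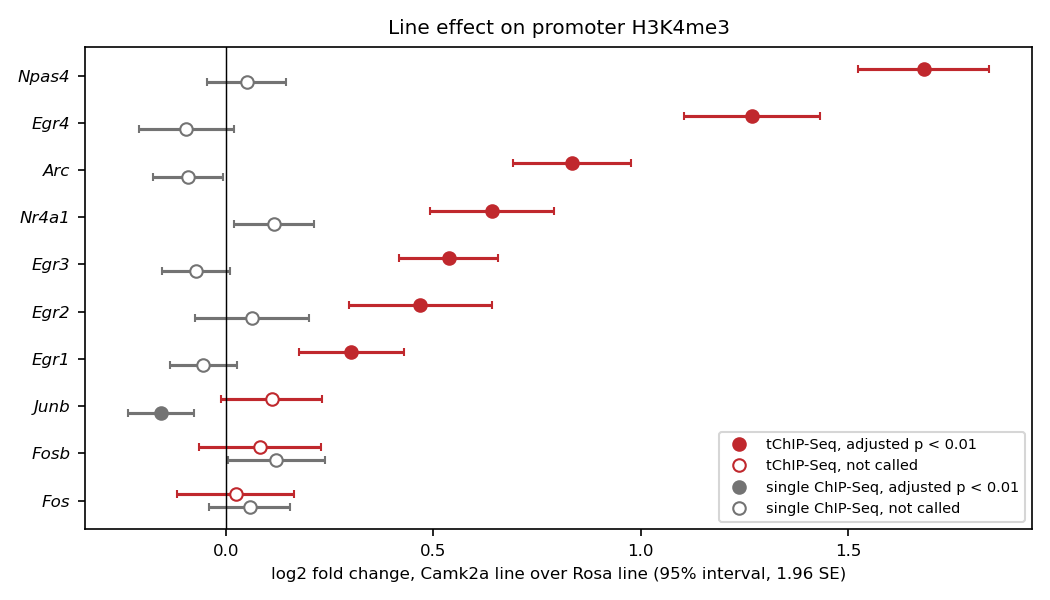
Log2 fold change of Camk2a H2B-FLAG over Rosa H2B-FLAG at the 10 members (rows), in tChIP-Seq (red) and in single ChIP-Seq (grey), with bars for the 95% interval (1.96 SE) and filled points for an adjusted p under 0.01. In tChIP-Seq, 7 members lie to the right of 0 from 0.30 to 1.68, and in single ChIP-Seq the values lie between -0.16 and 0.12.

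The second comparison set the lines against each other in single ChIP-Seq, where all cells of the cortex supplied the chromatin. Of the members, 0 were called higher and 1 lower, beside 0.928% and 1.22% of all regions. Log2 fold changes ran from -0.16 at Junb to 0.12 at Fosb. At Npas4 the libraries held 121, 124 and 132 CPM in Camk2a H2B-FLAG and 132, 113 and 121 CPM in Rosa H2B-FLAG, which overlapped (0.05 ± 0.05, adjusted p = 0.590). At Egr4 they held 79.5, 77.3 and 78.0 CPM against 83.4, 82.4 and 84.9 CPM, so that the groups did not overlap although the difference was not called (-0.09 ± 0.06, adjusted p = 0.345). Junb, with 180, 172 and 185 CPM against 199, 197 and 202 CPM, was the member called (-0.16 ± 0.04, adjusted p = 0.00776). That call was lost without any of 5 of the 6 libraries, with adjusted p-values from 0.0134 (without Rosa replicate 2) to 0.101 (without Camk2a replicate 2), and was kept, at 0.00814, without Camk2a replicate 3. Among the markers, 3 of 9 oligodendrocyte regions (Olig1, Olig2 and Cnp) were lower and 0 higher. Of 10 excitatory neuron regions, 1, of Camk2a, was higher (0.52 ± 0.04, adjusted p = 3.74e-27) and 0 lower. No astrocyte, endothelial or inhibitory neuron region was called.

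The line effect itself was then compared between the kinds of ChIP-Seq, as an interaction over all 12 libraries. At 8 members the step from Rosa to Camk2a was more positive in tChIP-Seq than without the purification and at 0 it was more negative, beside 13.7% and 13.2% of all regions. The differences in log2 fold change were 1.62 ± 0.10 (SE) at Npas4, 1.36 ± 0.10 at Egr4, 0.92 ± 0.08 at Arc, 0.60 ± 0.07 at Egr3, 0.52 ± 0.09 at Nr4a1, 0.40 ± 0.11 at Egr2, 0.35 ± 0.08 at Egr1 and 0.26 ± 0.07 at Junb, with adjusted p-values from 3.18e-41 at Npas4 to 0.00237 at Junb. Fos (-0.04 ± 0.09, adjusted p = 0.758, 95% interval -0.21 to 0.13) and Fosb (-0.05 ± 0.10, adjusted p = 0.756, 95% interval -0.24 to 0.14) were not called. The calls of Egr2 and Junb depended on single libraries. Without Rosa tChIP-Seq replicate 1 their adjusted p-values were 0.0130 and 0.0328, and without Camk2a single ChIP-Seq replicate 2 they were 0.0124 and 0.0122. Egr2 was also lost without Rosa tChIP-Seq replicate 3 (0.0110) or Camk2a tChIP-Seq replicate 3 (0.0132), and Junb without Camk2a tChIP-Seq replicate 1 (0.0101).

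The remaining comparisons asked what the FLAG purification did within each line, as tChIP-Seq over single ChIP-Seq. The study itself found loci enriched or deprived in Rosa tChIP-Seq against single ChIP-Seq. It offered as possible reasons a bias towards longer DNA, the FLAG epitope, and the variant, extension or amount of the tagged H2B. It therefore made its differential analyses mainly between tChIP-Seq of the lines. The part of such bias in the values below was not tested. They share their tChIP-Seq and single ChIP-Seq libraries with the comparisons of the lines, so they are the same data seen from another side. In Rosa H2B-FLAG, where the tag is in nearly all cells, 3 members were higher and 6 lower in tChIP-Seq, beside 24.7% and 22.5% of all regions. Fosb (0.57 ± 0.07 on the log2 scale), Fos (0.40 ± 0.06) and Egr2 (0.34 ± 0.09) rose, and Npas4 (-0.98 ± 0.08), Arc (-0.80 ± 0.06), Egr4 (-0.44 ± 0.09), Egr1 (-0.27 ± 0.06), Nr4a1 (-0.24 ± 0.07) and Junb (-0.22 ± 0.05) fell, with adjusted p-values from 6.40e-34 at Arc to 0.00172 at Nr4a1. Egr3 was not called (-0.10 ± 0.06, adjusted p = 0.114). At Arc, the 3 tChIP-Seq libraries (90.7 to 115 CPM) lay below the 3 single ChIP-Seq libraries (173 to 196 CPM), and at Fosb they lay above them (112 CPM in each, against 72.5 to 78.1 CPM). The excitatory neuron markers moved with the members that fell: 9 of their 10 regions were lower and 0 higher in Rosa tChIP-Seq, and their sum was 653 to 693 CPM against 1190 to 1204 CPM. Oligodendrocyte regions moved the same way, with 4 of 9 lower and 0 higher and a sum of 435 to 455 CPM against 565 to 584 CPM. Astrocyte markers moved the other way, with 9 of 9 regions higher, as did 5 of 8 endothelial and 3 of 7 inhibitory neuron regions, with 0 lower. The part of any of these in the members' values was not tested. Nr4a1 lost its call without Rosa single ChIP-Seq replicate 1 or tChIP-Seq replicates 2 or 3 (adjusted p = 0.0112, 0.0393 and 0.0415), Junb without tChIP-Seq replicate 1 (0.0155), and Egr2 without tChIP-Seq replicate 2 (0.0161).

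In Camk2a H2B-FLAG, 7 members were higher and 0 lower in tChIP-Seq, beside 25.3% and 22.6% of all regions. Egr4 (0.90 ± 0.06), Egr2 (0.73 ± 0.07), Npas4 (0.64 ± 0.05), Fosb (0.52 ± 0.07), Egr3 (0.49 ± 0.05), Fos (0.35 ± 0.06) and Nr4a1 (0.27 ± 0.06) rose, with adjusted p-values from 2.13e-30 at Egr4 to 1.71e-05 at Nr4a1. Arc (0.10 ± 0.05, adjusted p = 0.0698), Egr1 (0.07 ± 0.05, adjusted p = 0.264) and Junb (0.03 ± 0.05, adjusted p = 0.620) were not called. At Arc the libraries overlapped, with 177 to 187 CPM in tChIP-Seq and 162 to 179 CPM in single ChIP-Seq. Npas4, Egr4 and Nr4a1 thus moved in opposite directions in the lines, while Fos, Fosb and Egr2 were higher after the purification in both. Arc, Egr1 and Junb were called lower in Rosa H2B-FLAG and not called in Camk2a H2B-FLAG, and Egr3 was called higher in Camk2a H2B-FLAG and not called in Rosa H2B-FLAG. Among the markers, 8 of 10 excitatory neuron regions were higher and 1 lower in Camk2a tChIP-Seq. Of the astrocyte regions 7 of 9 were lower, and of the endothelial regions 8 of 8. Of 9 oligodendrocyte regions, 7 were lower and 1, of Mbp, was higher. Of 7 inhibitory neuron regions, 3 were lower and 1, of Pvalb, was higher. The part of any of these markers in the members' values was not tested.

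**Figure D3:**
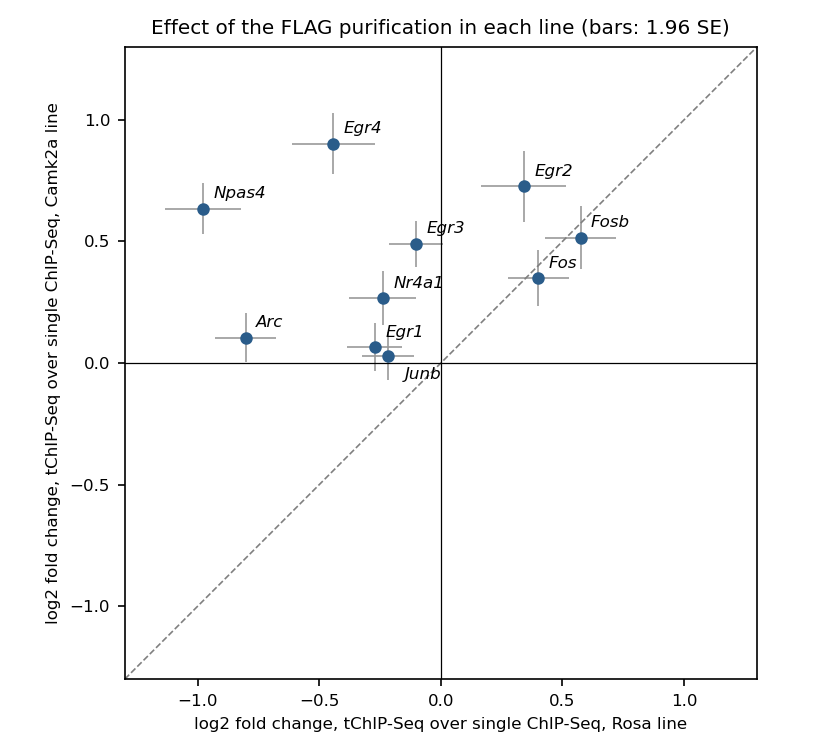
Log2 fold change of tChIP-Seq over single ChIP-Seq in Rosa H2B-FLAG (x) and in Camk2a H2B-FLAG (y) for the 10 members, with bars of 1.96 SE and a dashed line where the values are equal. Fos and Fosb lie near the line at 0.35 to 0.57, and Npas4 (-0.98 and 0.64) and Egr4 (-0.44 and 0.90) lie far above it.

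Genes that work with the members were then examined in tChIP-Seq of the lines, where 17.0% of all regions were called higher and 14.6% lower. The list nearest to the members by family, the other AP-1 and NR4A factors, had 11 regions, of which 1 was higher and 2 lower in Camk2a H2B-FLAG, with a median log2 fold change of -0.07. Nr4a3, a relative of Nr4a1, was higher (0.32 ± 0.06 SE, adjusted p = 1.11e-06). The 2 regions of Nr4a2, of the same family, were not called (-0.07 ± 0.07, adjusted p = 0.459, and 0.12 ± 0.10, adjusted p = 0.366). Atf3, a stress-induced partner of Jun proteins, fell (-0.44 ± 0.12, adjusted p = 0.00120), and so did Batf, an AP-1 factor of lymphocytes (-3.05 ± 0.53, adjusted p = 1.25e-06), which held 6.44 ± 2.95 CPM in Rosa and 0.702 ± 0.359 CPM in Camk2a H2B-FLAG (SD, n = 3).

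Of 31 regions of other inducible early genes, 4 were higher and 8 lower, with a median of 0.00. Over all regions the shares were 17.0% and 14.6%. Ptgs2, which encodes the prostaglandin synthase COX-2 (0.37 ± 0.12, adjusted p = 0.00840, in a region shared with 7530420F21Rik), and the kinase gene Plk3 (0.37 ± 0.09, adjusted p = 0.000310) rose the most. Zfp36, which encodes an RNA-binding protein that speeds mRNA decay, fell from 98.9 ± 6.5 to 31.0 ± 5.03 CPM (-1.66 ± 0.11, adjusted p = 3.25e-23). Ctgf, a matrix protein gene, fell too (-0.96 ± 0.17, adjusted p = 2.72e-06, in a region shared with Gm15270).

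The late-response genes had the largest share of calls among these 4 lists. Of their 20 regions, 15 were higher and 1 lower, with a median of 0.96, beside 17.0% and 14.6% of all regions. Bdnf, which encodes a neurotrophin secreted by active neurons, rose in its leading region from 28.8 ± 6.38 to 78.3 ± 6.48 CPM (1.44 ± 0.12, adjusted p = 2.44e-17), and Nptx2, a gene for a secreted protein that gathers glutamate receptors, rose from 33.5 ± 3.16 to 86.3 ± 6.55 CPM (1.37 ± 0.11, adjusted p = 3.89e-18). Arf4, a small GTPase gene, fell (-0.34 ± 0.07, adjusted p = 0.000118, in a region shared with 4930570N19Rik). That Bdnf region was also called in single ChIP-Seq (0.32, adjusted p = 0.00711).

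Of 23 regions of upstream regulators, the kinases, SRF cofactors, CREB and MEF2 factors that act on the members, 5 were higher and 2 lower, with a median of 0.06. Again, 17.0% and 14.6% of all regions were called. Mkl1, an SRF cofactor, rose in its region chr15:80932873-80936393 (0.98 ± 0.12, adjusted p = 2.15e-11). Its other region, chr15:81019975-81021273, was not called. Camk4, a calcium-dependent kinase that phosphorylates CREB, rose too (0.97 ± 0.09, adjusted p = 1.88e-16, in a region shared with 2310026I22Rik). Mapk3, which encodes ERK1 (-0.64 ± 0.13, adjusted p = 2.75e-05), and Elk3, an SRF partner of the ETS family (-0.62 ± 0.09, adjusted p = 1.44e-08), fell. Beside these lists, 9 of 10 excitatory neuron regions were higher and 0 lower, with a median of 1.34, and 9 of 9 astrocyte, 8 of 8 endothelial, 7 of 9 oligodendrocyte and 5 of 7 inhibitory neuron regions were lower, with 1 oligodendrocyte region, of Mbp, higher. How far the makeup of the purified chromatin accounts for the members' values was not tested.

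**Figure D4:**
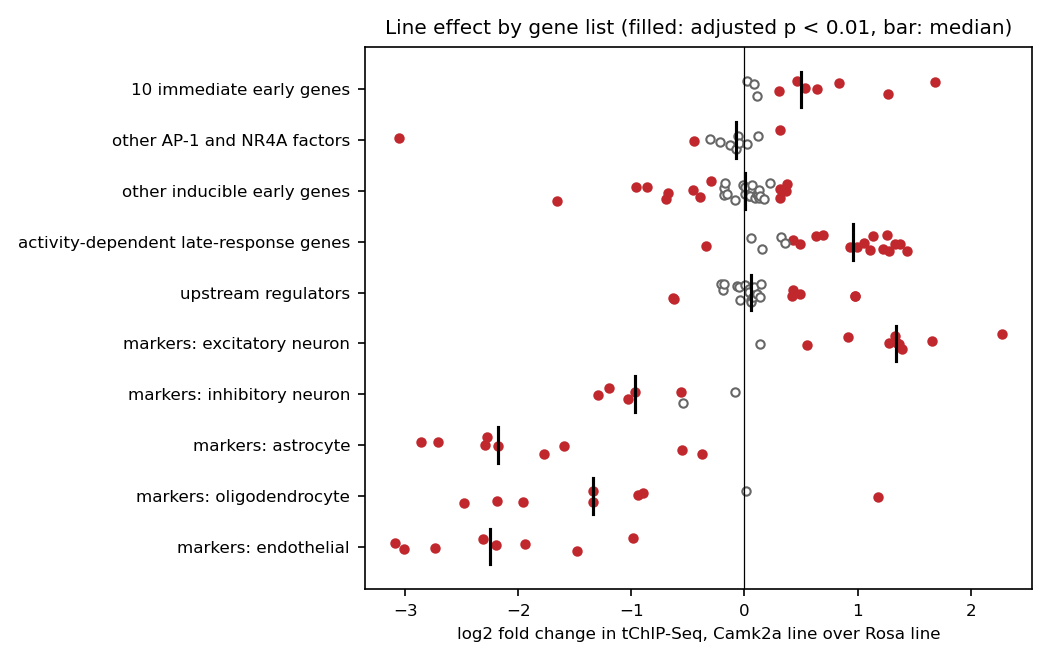
Log2 fold change in tChIP-Seq of Camk2a H2B-FLAG over Rosa H2B-FLAG for every region of each gene list (rows), with filled points for an adjusted p under 0.01 and a bar at the list's median. The members' median is 0.50, between those of the other inducible early genes (0.00) and of the excitatory neuron markers (1.34).

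The regions of other genes most like the extremes among the members were sought by Pearson's r of log2 CPM over the 12 libraries, among 12155 TSS regions. Npas4, the member with the highest line effect in tChIP-Seq, was most like Slc7a14 (r = 0.996), Frmd4a (0.993) and Mal2 (0.993). Fos, the member with the lowest, was most like Efemp1 (r = 0.964), Podn (0.959) and Stc2 (0.955). The 12 points fall into 4 groups, so that r mostly describes the order of the 4 group means.

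H3K4me3 was also counted in regions that overlap no annotated TSS, and 16 of these had their centre within 50 kb of a member's start, around 7 of the genes. They were looked up after the members' values had been seen. In tChIP-Seq, 5 were higher in Camk2a H2B-FLAG and 0 lower, beside 13.6% and 12.6% of the 4589 TSS-free regions. A region 11717 bp upstream of Nr4a1 (chr15:101084003-101087118) rose from 39.7 ± 8.50 to 80.9 ± 9.99 CPM (SD, n = 3), which is 1.02 ± 0.12 (SE) on the log2 scale with an adjusted p of 3.77e-12, while in single ChIP-Seq it held 55.4 ± 0.932 and 57.3 ± 6.20 CPM. A smaller one 25529 bp upstream of Nr4a1 (1.06 ± 0.27, adjusted p = 0.000626) and one 29212 bp downstream of Egr4 (0.79 ± 0.20, adjusted p = 0.000681) were higher as well.

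Around Fosb, whose promoter was not called, 2 of 5 such regions were higher, 23702 bp (0.48 ± 0.12, adjusted p = 0.00102) and 32127 bp upstream (0.56 ± 0.15, adjusted p = 0.00115). Around Fos, a region 12673 bp downstream held 48.3 to 56.4 CPM in Rosa and 36.4 to 47.6 CPM in Camk2a tChIP-Seq, which did not overlap, but was not called (-0.34 ± 0.12, adjusted p = 0.0168). A region of 569 bp centred 6977 bp upstream of Arc, on the side where a synaptic activity-responsive enhancer of Arc is known, held 3.94 to 6.56 CPM in Rosa and 5.91 to 9.58 CPM in Camk2a tChIP-Seq, which overlapped (0.61 ± 0.33, adjusted p = 0.134). Within Camk2a H2B-FLAG tChIP-Seq exceeded single ChIP-Seq there (1.70 ± 0.31, adjusted p = 6.35e-07). Which gene such a region acts on was not measured.

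**Figure D5:**
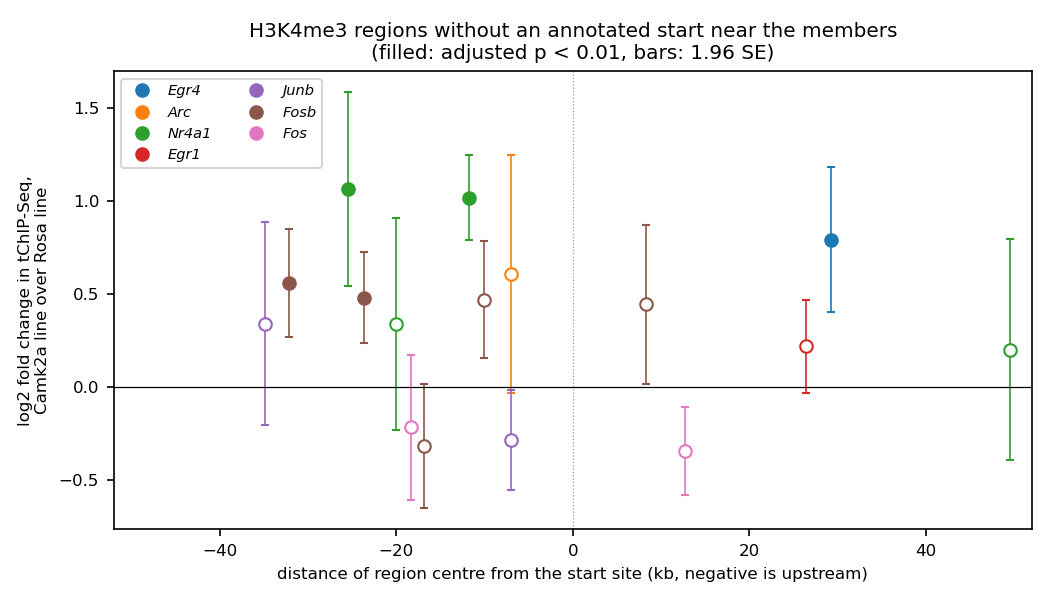
Log2 fold change in tChIP-Seq of Camk2a H2B-FLAG over Rosa H2B-FLAG for 16 H3K4me3 regions without an annotated TSS, by the distance of their centre from the member's start site (kb, negative is upstream), with bars of 1.96 SE and filled points for an adjusted p under 0.01. The 5 filled points, near Nr4a1, Fosb and Egr4, lie between 0.48 and 1.06.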

How the data were processed

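H3K4me3 was sequenced from cerebral cortex of mice in 4 groups of 3 libraries. The authors trimmed reads with FASTX Toolkit, removed repeats with Bowtie2 2.1.0, mapped to mm9 with Bowtie 1.0.0, removed duplicates with SAMtools (the sources give different versions), used MACS to call peaks and bedtools 2.17.0 to count the reads in each. The deposited values are raw counts on 1 list of 17993 regions; how the list was merged is not given in the sources used here. The 12 input and FLAG libraries were not analysed here. TSSs were taken from GENCODE M1 on mm9, and 25 regions on other sequence names stayed in the tests only.

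CPM used TMM factors over the 12 libraries. For each pair of groups the fit took its 6 libraries, and for the interaction all 12, with edgeR 4.0.16 (glmQLFit, glmQLFTest, R 4.3.3), no filter or covariate, and Benjamini-Hochberg adjustment over all regions. The SE was |log2 fold change| / √F and the 95% interval 1.96 SE. The fits were checked on simulated counts in which few regions changed, as many up as down. Scaling under widespread change was not checked in that way. Labels do not say whether libraries share animals, so p-values measure the spread between libraries. DESeq2 1.42.0, other scalings, a minimum of 10 counts, a replicate block, 1 joint fit, a threshold of 0.05, a TSS within 1000 bp and leaving out each library were the alternatives. The members, the gene lists and the naming rule (every member, the 2 called regions of largest change in each direction per list, and the 3 regions most like the extreme members with at least 50 mean counts) were chosen with earlier results of these data known.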

Additional observations from a re-analysis of the deposited data

Results flagged for a closer look

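For the results below the line effect (Camk2a H2B-FLAG over Rosa H2B-FLAG) differed between tChIP-Seq and single ChIP-Seq in edgeR's interaction test, at an adjusted p under 0.01. Each value is the log2 fold change in tChIP-Seq minus that in single ChIP-Seq. Among the members these were Npas4 (1.62), Egr4 (1.36), Arc (0.92), Egr3 (0.60), Nr4a1 (0.52), Egr2 (0.40), Egr1 (0.35) and Junb (0.26). Of the related genes, only those named above were screened, and they had been chosen for their line effect in tChIP-Seq, which enters this difference. Among them the difference was positive for Nptx2 (1.396), Bdnf (1.11), Camk4 (1.01), Mkl1 (0.77), Plk3 (0.48) and Nr4a3 (0.36). It was negative for Batf (-3.57), Zfp36 (-1.52), Ctgf (-1.09), Elk3 (-0.74), Mapk3 (-0.72), Atf3 (-0.56) and Arf4 (-0.30). Bdnf and Mkl1 are given for the regions described above. Regions of genes not named here passed as well. Of all 20 late-response regions, 15 had a positive and 1 a negative difference, beside 13.7% and 13.2% of all regions. Of the regions without an annotated TSS, the one 11717 bp upstream of Nr4a1 (0.96, adjusted p = 1.21e-10) and the one 23702 bp upstream of Fosb (0.56, adjusted p = 0.00120) differed in the same way. Ptgs2, named for its change in tChIP-Seq, was not among them (0.27, adjusted p = 0.139).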

How the results depend on the processing

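The 7 members called higher between the lines in tChIP-Seq, and the 7 called higher by the purification in Camk2a H2B-FLAG, were called under every alternative. Of 747 values of members under alternatives, 719 kept their direction and their side of the threshold, 23 lost their call and 5 changed sign. A TSS within 1000 bp gave the same member regions and so the same values, and the threshold of 0.05 used the same fits. Neither could lose a call or change a sign, so the 719 include values that were not put to a test. The sign changes were of small values: Fos between the lines in tChIP-Seq with library totals alone (-0.0476) and without a library (-0.0636 to 0.100, negative without replicate 3 of Rosa or, at -0.0333, of Camk2a), Fos in the interaction without a library (-0.129 to 0.0341, positive without Rosa tChIP-Seq replicate 1), and Npas4 between the lines in single ChIP-Seq without a library (-0.0142 to 0.113, negative without Rosa replicate 2). The count of members lower between the lines in single ChIP-Seq, 1, was 0 with library totals alone and 0 with DESeq2's Wald test (adjusted p of Junb 0.0815, and none given for 3 members), and 0 to 1 when a library was left out. With library totals alone, Egr2 and Junb lost their calls in the interaction (adjusted p = 0.0248 and 0.0657). Nr4a1 and Junb lost theirs in Rosa tChIP-Seq over single ChIP-Seq (0.0849 and 0.0536).

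Library totals alone moved the median log2 fold change of all regions by up to 0.10. The share of called regions that were higher then went from 53.9% to 43.7% between the lines in tChIP-Seq and from 43.3% to 77.3% in single ChIP-Seq. It went from 52.3% to 67.7% for the purification in Rosa H2B-FLAG and from 50.9% to 38.9% in the interaction. DESeq2's Wald test gave 29.4% in single ChIP-Seq, but from only 5 regions called higher and 12 lower, against 167 and 219 in the main fit. With a replicate block, 7 members were higher between the lines in tChIP-Seq, 1 was lower in single ChIP-Seq, 3 were higher and 6 lower for the purification in Rosa H2B-FLAG, 7 were higher in Camk2a H2B-FLAG and 8 in the interaction, as without it. Deviations of same-numbered libraries from their group means correlated at 0.007 to 0.055 within the lines. Those of differently numbered libraries correlated at -0.039 to 0.025. Replicates differed by little more than counting noise, with a chi-square per degree of freedom of 1.03 to 1.09. Low correlations therefore cannot exclude that same-numbered libraries are paired, and the main fits left pairing out. Rosa tChIP-Seq, with at most 1828371 counts, limits the precision of each comparison it enters.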

Other observations

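The other lists were also compared within the lines, beside 24.7% of all regions higher and 22.5% lower after the purification in Rosa H2B-FLAG, and 25.3% and 22.6% in Camk2a H2B-FLAG. Of 20 regions of late-response genes in Rosa H2B-FLAG, 14 were lower and 3 higher after the purification, with a median log2 fold change of -0.53. In Camk2a H2B-FLAG, 12 were higher and 4 lower, with a median of 0.39. Excitatory neuron markers moved the same way, with 9 of 10 regions lower and 0 higher in Rosa H2B-FLAG, and 8 higher and 1 lower in Camk2a H2B-FLAG, and their part in these counts was not tested. For the other inducible early genes the counts were 3 higher and 14 lower of 31 regions in Rosa H2B-FLAG (median -0.04), and 4 higher and 14 lower in Camk2a H2B-FLAG (median -0.18). For the upstream regulators they were 1 higher and 14 lower of 23 regions in Rosa H2B-FLAG (median -0.28), and 2 higher and 11 lower in Camk2a H2B-FLAG (median -0.19).

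In the 300 bp upstream of their starts the members had a median GC content of 66.5%, against 60.7% over the annotated starts in regions, and a median observed over expected CpG of 0.740 against 0.747. The GC box (GGGCGG) was found in 7 members against 67.4% of starts, and CCAAT in 4 against 43.4%. Npas4 had the lowest CpG ratio of the members (0.525) and Nr4a1 the highest (1.10).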
